A study of Mus musculus with 12 samples.

Results

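Large cliques of the young hepatocyte network that were divided among several cliques of the old network are described here. A clique is a set of genomic bins, each 5 kb long, that the authors grouped from contacts between chromatin regions carrying acetylation of histone H3 at lysine 27 (H3K27ac). The number of bins in a clique is its number of nodes, and every node belonged to exactly 1 clique of its network. Sets of this size that share no node have the form of communities dividing a network, and the links inside them were not analysed here. A split clique is therefore a set of bins that was grouped differently in the 2 networks, and whether links between its bins were lost was not tested. A young clique was called split when 3 conditions held. It lay on an autosome and had at least 10 nodes. Its best Jaccard index, the number of shared bins divided by the number of bins in either clique, stayed below 0.5 against every old clique. At least 2 old cliques each shared 2 or more of its bins. The rule was met by 539 of the 1558 large young cliques on autosomes (34.6%, 95% Wilson interval 32.3 to 37.0), and the young network held 5401 cliques in all. The count depended on how a piece is defined: it was 277 when a piece needed 3 bins, 139 when it needed 5, 226 when bins could match with 1 bin of slack and 134 over bins present at both ages. The bins shared with 1 such old clique are called a piece.

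The contacts were measured by Hi-ChIP in hepatocytes of male C57BL/6 mice, 5 months old in the young group and 25 months old in the old group. Each group had 6 libraries, from 2 biological replicates in 3 batches of technical repeats, and no other treatment or allele was named for either group. Hepatocytes were taken from collagenase-perfused livers by pelleting at low speed and were not sorted, and the number of mice per replicate is not stated in the labels. Each age was deposited as 1 network, with 56928 nodes in the young and 40304 in the old, so no spread between mice or batches could be computed. The depth of contacts behind each network is unknown, so a shallower old library and fewer contacts in old cells cannot be told apart. Young and old mice also came from separate stocks and were kept in the same vivarium for 2 months before use, so stock and age cannot be told apart either. No p-value is given, and the intervals cover counting error only and treat neighbouring bins and cliques as independent. Because the rule read both networks, every count of split cliques and every overlap below is a description of these 2 networks. All 7 hepatocyte markers examined were listed by a young clique and 6 of them, all but Hnf4a, by an old clique, with summed clique sizes of 350 and 186 nodes. Of the 6 Kupffer cell markers, none was listed at either age, including Clec4f, Vsig4 and Timd4. For endothelial cells 2 of 6 markers were listed in the young network and 1 in the old, and the summed sizes were 29 and 3 nodes. Stellate cell, cholangiocyte and lymphocyte lists each had 1 of 6 markers listed in the young network, with summed sizes of 2, 11 and 8 nodes, against 0, 0 and 7 in the old. Their part in the results was not tested.

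H3K27ac marks active promoters and enhancers. Hi-ChIP ligates DNA ends that lie close together in the nucleus and then enriches for fragments carrying the mark, so that it records contacts among active regulatory elements. Enhancers reach their target promoters by such contacts, mostly within a topological domain, and several genes and enhancers often gather into a shared hub. In hepatocytes, hubs of this kind hold genes of metabolism, detoxification and plasma protein secretion.

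The promoters of 3 genes from each of 3 split cliques are printed here because each trio was listed by a common clique in the young network and by 3 different cliques in the old. Each sequence is the run of 200 bases before the annotated start site, 5′ to 3′ in the direction of the gene, from RefSeq on GRCm38.p6. Capitals mark matches on either strand to 6 motifs: TATAAA (the TATA box), CCAAT (the CCAAT box), GGGCGG (the GC box), CACGTG (an E-box, the same on both strands), TGACTCA (the AP-1 motif) and CAAAGTCCA (a core of the HNF4 motif). None of the 6 contains another. A match is a run of letters and not evidence of binding. The first trio came from the clique of 193 nodes on chromosome 3. In the old network the start-site bin of Abcd3, a peroxisomal fatty acid transporter, lay in a clique of 77 nodes, that of Cnn3, an actin-binding calponin, in a clique of 35, and that of F3, tissue factor, in a clique of 13. Abcd3 has 2 start sites in the table, and the site shown lies in a bin of both networks. Their windows are chr3:121815303-121815502 on the minus strand, chr3:121426341-121426540 on the plus strand and chr3:121723337-121723536 on the plus strand.
Abcd3: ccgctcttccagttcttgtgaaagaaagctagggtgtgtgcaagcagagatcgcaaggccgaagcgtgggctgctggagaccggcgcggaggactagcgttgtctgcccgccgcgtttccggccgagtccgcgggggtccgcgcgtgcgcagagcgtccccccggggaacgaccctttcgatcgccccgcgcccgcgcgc
Cnn3: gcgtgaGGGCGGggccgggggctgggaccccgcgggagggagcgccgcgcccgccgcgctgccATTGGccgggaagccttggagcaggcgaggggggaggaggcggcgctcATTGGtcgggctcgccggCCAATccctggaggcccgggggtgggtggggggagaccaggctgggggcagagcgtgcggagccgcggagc
F3: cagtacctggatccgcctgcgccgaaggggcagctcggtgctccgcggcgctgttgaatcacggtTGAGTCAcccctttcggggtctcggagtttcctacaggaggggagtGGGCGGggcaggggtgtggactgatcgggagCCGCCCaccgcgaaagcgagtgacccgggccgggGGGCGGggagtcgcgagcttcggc
The second trio came from the clique of 159 nodes on chromosome 10. Inhbe, a liver-secreted inhibin subunit, lay in an old clique of 69 nodes, Cs, citrate synthase, in a clique of 33 and Stat2, which carries the signal of type I interferon, in a clique of 11. The windows are chr10:127351849-127352048 on the minus strand, chr10:128337527-128337726 on the plus strand and chr10:128270298-128270497 on the plus strand.
Inhbe: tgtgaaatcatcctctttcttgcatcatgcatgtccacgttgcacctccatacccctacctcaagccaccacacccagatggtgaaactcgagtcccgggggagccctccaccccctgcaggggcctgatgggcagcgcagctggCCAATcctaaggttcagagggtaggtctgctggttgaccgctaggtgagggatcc
Cs: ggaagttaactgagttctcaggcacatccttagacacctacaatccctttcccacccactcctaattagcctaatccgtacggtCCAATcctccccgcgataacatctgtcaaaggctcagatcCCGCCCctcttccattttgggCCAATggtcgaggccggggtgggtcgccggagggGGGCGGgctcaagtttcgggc
Stat2: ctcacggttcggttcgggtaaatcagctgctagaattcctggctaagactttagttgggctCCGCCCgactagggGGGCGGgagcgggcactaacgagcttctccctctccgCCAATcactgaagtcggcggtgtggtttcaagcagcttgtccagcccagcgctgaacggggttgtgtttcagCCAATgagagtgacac
The third trio came from the clique of 148 nodes on chromosome 7. Ifitm3, an antiviral membrane protein, lay in an old clique of 56 nodes, Pnpla2, the adipose triglyceride lipase, in a clique of 46 and Cyp2e1, the ethanol-oxidising cytochrome P450, in a clique of 5. The windows are chr7:141010745-141010944 on the minus strand, chr7:141454988-141455187 on the plus strand and chr7:140763619-140763818 on the plus strand.
Ifitm3: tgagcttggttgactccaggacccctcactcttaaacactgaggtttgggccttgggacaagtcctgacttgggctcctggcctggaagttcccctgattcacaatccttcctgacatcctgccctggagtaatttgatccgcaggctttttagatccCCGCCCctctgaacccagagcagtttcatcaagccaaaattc
Pnpla2: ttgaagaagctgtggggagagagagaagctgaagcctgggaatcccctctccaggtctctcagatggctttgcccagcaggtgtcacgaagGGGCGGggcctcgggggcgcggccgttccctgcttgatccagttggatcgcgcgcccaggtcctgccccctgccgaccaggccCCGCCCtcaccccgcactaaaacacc
Cyp2e1: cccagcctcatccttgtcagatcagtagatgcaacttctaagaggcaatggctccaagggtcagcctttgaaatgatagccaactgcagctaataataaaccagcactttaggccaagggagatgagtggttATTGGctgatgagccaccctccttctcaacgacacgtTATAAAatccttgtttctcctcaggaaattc
The G and C share of the printed windows was 69.5% for Abcd3, 79.5% for Cnn3 and 70% for F3. It was 59% for Inhbe, 57.5% for Cs and 58% for Stat2. It was 52.5% for Ifitm3, 66% for Pnpla2 and 46% for Cyp2e1. No motif of the 6 was found in the Abcd3 window, and 4 matches were found in each of the Cnn3, F3, Cs and Stat2 windows. The AP-1 motif occurred in F3 and the TATA box in Cyp2e1 among these 9 windows.

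Larger cliques met the rule more often. Of young cliques with 10 to 19 nodes, 182 of 649 were split (28.0%, 24.7 to 31.6). The count was 254 of 709 (35.8%, 32.4 to 39.4) for 20 to 49 nodes and 103 of 200 (51.5%, 44.6 to 58.3) for 50 nodes or more. Of the other large young cliques, 622 kept a best Jaccard index of at least 0.5, 374 shared 2 or more bins with exactly 1 old clique, here called 1 remnant, and 23 with none. The kept share also rose over these size classes, at 29.7%, 47.0% and 48.0%, and the share with 1 remnant fell, at 38.7%, 17.2% and 0.5%. A clique with more bins can more easily hold 2 pieces, and the part of this in the split shares was not tested. With the ages exchanged, the same rule called 97 of 1127 large old cliques split among young cliques (8.61%, 7.11 to 10.4), so the young share was 4.02 times the old. In the size classes the old shares were 5.65%, 11.1% and 17.2%. The young network held more nodes and larger cliques than the old, and the part of that difference in this ratio was not tested. The ratio was 3.33 with at least 20 nodes at both ages and 4.33 when the old minimum was lowered to 5 nodes, the same percentile of clique size.

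**Figure D1:**
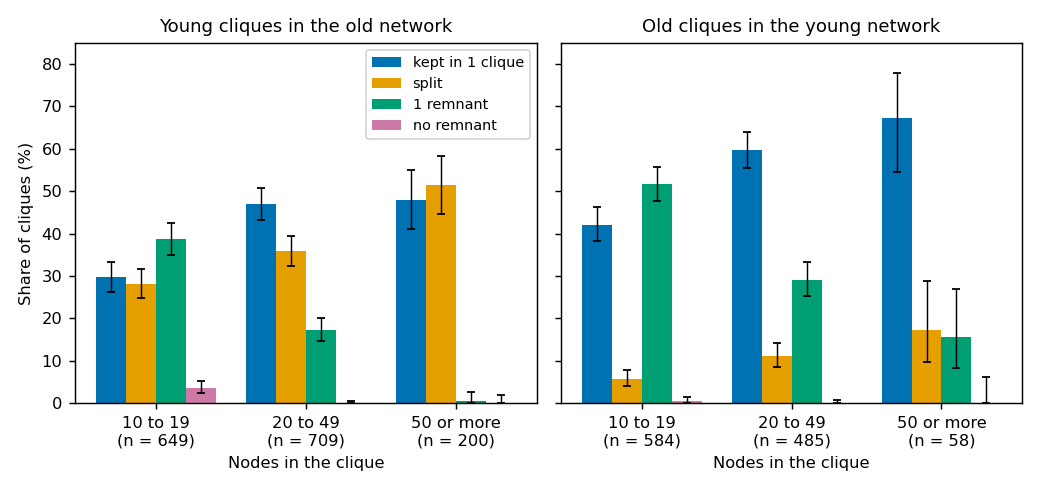
The bars show the share of large cliques on autosomes, in percent, in each class by number of nodes, for young cliques set against the old network on the left and old cliques set against the young network on the right. Error bars are 95% Wilson intervals, and the split share of young cliques stood above that of old cliques in each size class, 51.5% against 17.2% at 50 or more nodes.

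A split clique had a median of 26 nodes (10 to 193) over a median span of 345 kb (55 to 1960). Its best Jaccard index had a median of 0.316 and ran from 0.0652 to 0.494. In 315 split cliques there were 2 pieces, in 134 there were 3, in 47 there were 4, and in 43 there were 5 or more, with at most 10. Together the 539 cliques held 18083 bins. Of these, 6620 (36.6%) lay in the largest piece of their clique and 3598 (19.9%) in the other pieces. A further 297 (1.64%) lay in old cliques that shared only that bin, and 7568 (41.9%) were no node of the old network. The absent share was 38.2% over all bins of large young cliques and 44.4% over all young bins, and the value of the split cliques lay between them. Within a split clique the median share of bins was 34.8% in the largest piece, 16.7% in the other pieces and 44.1% absent. The largest piece had a median of 9 bins and the second piece a median of 3. In 75 split cliques the second piece held 10 or more bins, and in 400 it held fewer than 5.

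Absent bins lower the Jaccard index even where the bins that remained stayed together. When the index was computed over bins present at both ages only, 134 of the 539 cliques (24.9%, 21.4 to 28.7) stayed below 0.5. These 134 had a median of 23 nodes and 3 pieces, with a median of 5 bins in the largest piece and 3 in the second. Of the 103 split cliques with at least 50 nodes, 21 were among them. On the same measure 26 large old cliques were split among young cliques (2.31%), against 8.60% of large young cliques.

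**Figure D2:**
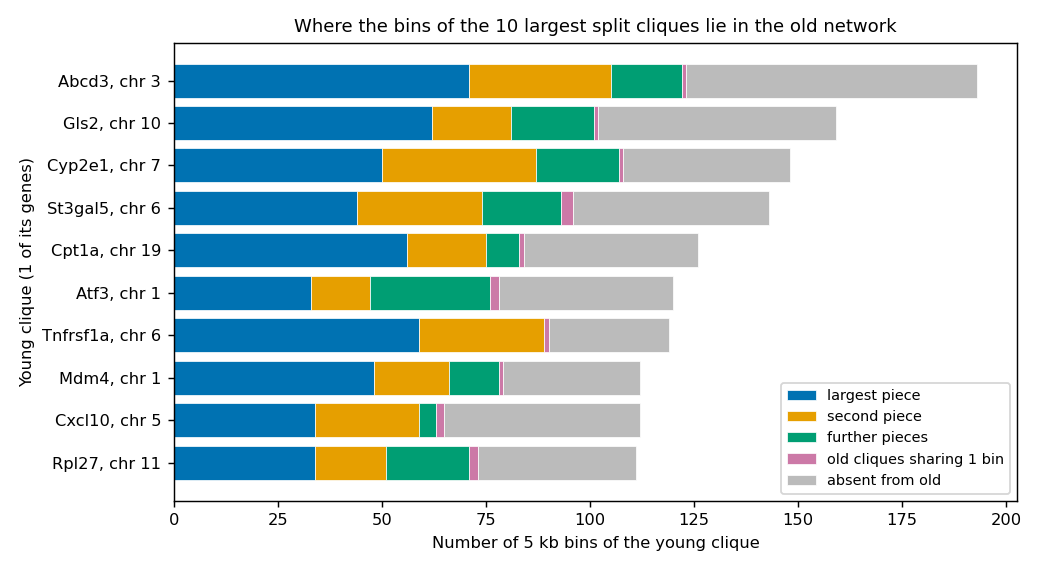
Horizontal bars give the number of 5 kb bins of each of the 10 largest split cliques, named by 1 of their genes, divided by where the bins lay in the old network. The largest piece held between 33 and 71 bins, and in the Abcd3 clique it held 71 of 193.

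The pieces of a clique could lie next to each other along the chromosome or be mixed. The 2 largest pieces lay side by side, with no overlap of their spans, in 252 split cliques (46.8%). In 152 (28.2%) the second piece lay within the span of the largest, in 47 (8.72%) the largest lay within the span of the second, and in 88 (16.3%) the spans crossed. The layout differed with the size of the second piece. Where it held 10 or more bins, 66 of 75 pairs lay side by side (88.0%, 78.7 to 93.6) and 0 second pieces were nested in the largest. Where it held fewer than 5 bins, 148 of 400 pairs lay side by side (37.0%, 32.4 to 41.8) and 137 second pieces were nested. Small pieces were thus mostly mixed with or enclosed by other pieces, and large pieces mostly occupied neighbouring stretches. Counting every piece, 153 split cliques (28.4%) had pieces that followed each other without interleaving. When a piece needed 3 or more bins this share was 50.2%.

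**Figure D3:**
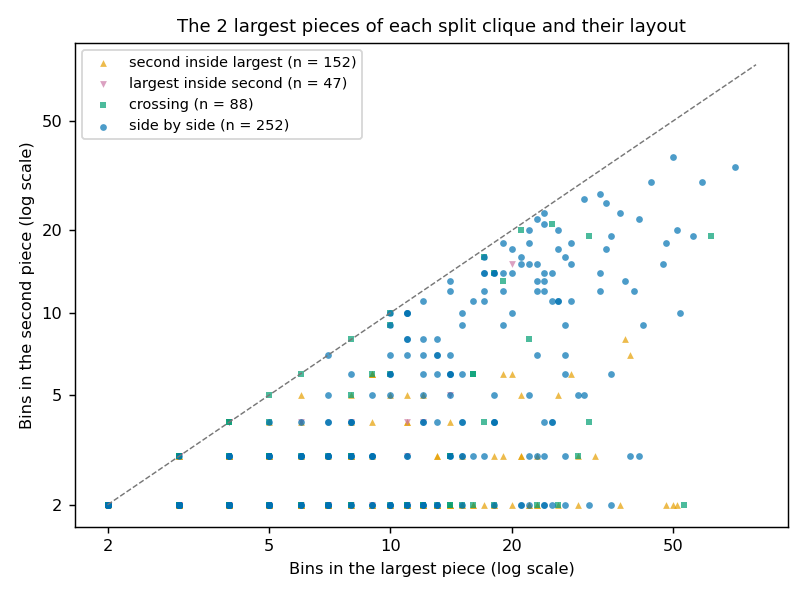
Each point is 1 of 539 split cliques, with the bins in its largest piece on the x axis and the bins in its second piece on the y axis, both on log scales, and the dashed line marks equal sizes. Points with 10 or more bins in the second piece are mostly side by side, 66 of 75, and nested pairs gather at second pieces of 2 to 4 bins.

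Borders between pieces were set against the spacing of the bins. A step is the move from a bin in a piece to the next bin of that young clique that lies in a piece, and 2088 of 9679 steps (21.6%) crossed from one piece to another. The share was 15.8% (14.8 to 16.8) where the bins were adjacent, 21.6% at 10 to 20 kb, 33.2% at 25 to 45 kb and 41.3% at 50 to 95 kb. It was 55.3% (48.9 to 61.5) at 100 to 195 kb and 57.6% (47.4 to 67.2) at 200 to 700 kb. The widest step of a clique, or any of several equally wide, crossed a border in 294 of 539 split cliques (54.5%). Counting ties in this way raises the share. Young bins that were absent from the old network lay between pieces in 2136 cases, or 1.02 per border, and within a piece in 3745 cases, or 0.493 per step without a border. The other 1687 lay outside the first and last piece. Wider steps leave more room for absent bins, so the 2 measures are not independent.

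**Figure D4:**
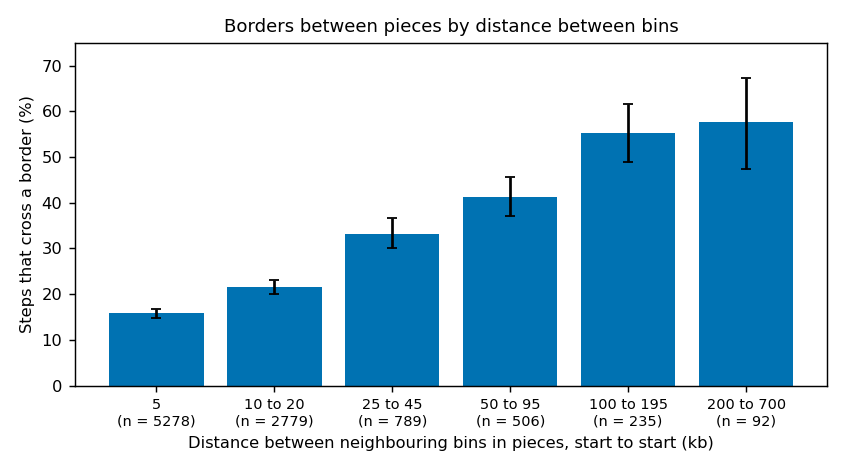
Bars give the percent of steps between neighbouring bins in pieces that cross from one piece to another, by the distance between the starts of the 2 bins in kb, with 95% Wilson intervals. The share was 15.8% for adjacent bins and 57.6% for bins 200 to 700 kb apart.

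The clique with the most nodes covered chr3:121155001-122645000 in mm10 and had 193 nodes. Its old remains were a piece of 71 bins at chr3:121760001-122630000, a piece of 34 bins at chr3:121160001-121525000 and a piece of 13 bins at chr3:121530001-121740000, with 2 further pieces of 2 bins, and 70 bins were absent. The old clique of the largest piece listed Abcd3, Arhgap29, Gclm and Dnttip2. Gclm encodes the modifier subunit of the enzyme that starts glutathione synthesis. The second listed Rwdd3, Tlcd4, Alg14 and Cnn3, and the third listed F3. The 3 large pieces therefore divided this region of 1490 kb into 3 successive stretches.

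The clique at chr10:127350001-128540000 had 159 nodes and 45 protein-coding genes, and 57 of its bins were absent from the old network. Its largest piece held 62 bins of an old clique of 69 nodes with Inhbe, Inhbc, Lrp1, Stat6 and a run of retinol dehydrogenase genes (Rdh1, Rdh7, Rdh16, Rdh19). The second piece held 19 bins of an old clique of 33 nodes with Cs, Cnpy2, Rnf41 and Smarcc2. The third held 10 bins of a clique of 11 nodes with Gls2, the liver glutaminase, and Stat2. Another piece, of 4 bins, listed Apof and Apon, which encode apolipoproteins, and 3 further pieces had 2 bins each. The pieces were mixed along the chromosome: the old clique changed 20 times along the bins, where 7 pieces in order would change 6 times.

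The Cyp2e1 clique covered chr7:139965001-141925000, 1960 kb, the longest span of any split clique, with 148 nodes in 8 pieces and 40 absent bins. A piece of 50 bins at chr7:140050001-141195000 belonged to an old clique that listed Echs1, Sirt3, Ifitm2, Ifitm3 and Rnh1. A piece of 37 bins at chr7:141215001-141595000 belonged to an old clique with Pnpla2, Taldo1, Slc25a22 and Cd151. Cyp2e1 was listed by an old clique of 5 nodes, all of them bins of this young clique, at chr7:140705001-140765000. That piece lay inside the stretch of the largest piece. The widest step of this clique was also a border between pieces. Over bins present at both ages only, 4 of the 10 largest split cliques stayed below 0.5, the Cyp2e1 clique among them with an index of 0.463. The other 6 lay above it, among them the Abcd3 clique at 0.568, the Stat2 clique at 0.602, the Cpt1a clique at 0.667 and the Tnfrsf1a clique at 0.656.

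Of the next cliques by size, that at chr6:71865001-72900000 had 143 nodes. Its old pieces of 44, 30 and 11 bins listed St3gal5 and Atoh8, then Mat2a, Ggcx and Retsat, then Usp39 and Vamp8. Mat2a makes S-adenosylmethionine and Ggcx carboxylates clotting factors. The clique at chr19:3265001-4250000 had 126 nodes. Cpt1a, the carnitine palmitoyltransferase that admits long-chain fatty acids to mitochondria, was listed by an old clique of 24 nodes, and Gstp1, a glutathione transferase, by an old clique of 63. At chr1:191150001-192120000 a clique of 120 nodes was divided into 7 pieces, the largest of 33 bins. Its stress-induced transcription factor gene Atf3 was listed by an old clique of 12 nodes, and Ppp2r5a, a regulatory subunit of protein phosphatase 2A, by another of 14.

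The clique at chr6:124400001-125380000 had 119 nodes and only 2 pieces, of 59 and 30 bins, which met at a border between 125090000 and 125095001. This border holds for the shared bins only. The old clique of the second piece began at 124765001, inside the stretch of the first piece, at a bin that was no node of this young clique. The old clique of the first listed Pex5, C1ra, C1s1, Lpcat3 and Tpi1. That of the second listed Chd4, Gapdh, Ltbr, Scnn1a and Tnfrsf1a, a receptor of tumour necrosis factor. Its index of 0.492 was among the 3 nearest to the threshold. At chr1:133025001-134110000 a clique of 112 nodes left pieces of 48 and 18 bins, the first with Ppp1r15b and Sox13 and the second with Optc, while its p53 regulator gene Mdm4 was listed by no old clique and had no old node in its body. The chemokine gene Cxcl10 lay in a clique of 112 nodes at chr5:92300001-93330000. It was listed with Sdad1, Art3 and Nup54 by an old clique of 41 nodes, and Shroom3 and Ccng2 were listed by another of 30. The tenth largest, 111 nodes at chr11:101440001-102455000, had 7 pieces. Its largest, of 34 bins, belonged to a clique with Nags, which makes the activator of the urea cycle, and G6pc3, and Rpl27 was listed by an old clique of 2 nodes.

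**Figure D5:**
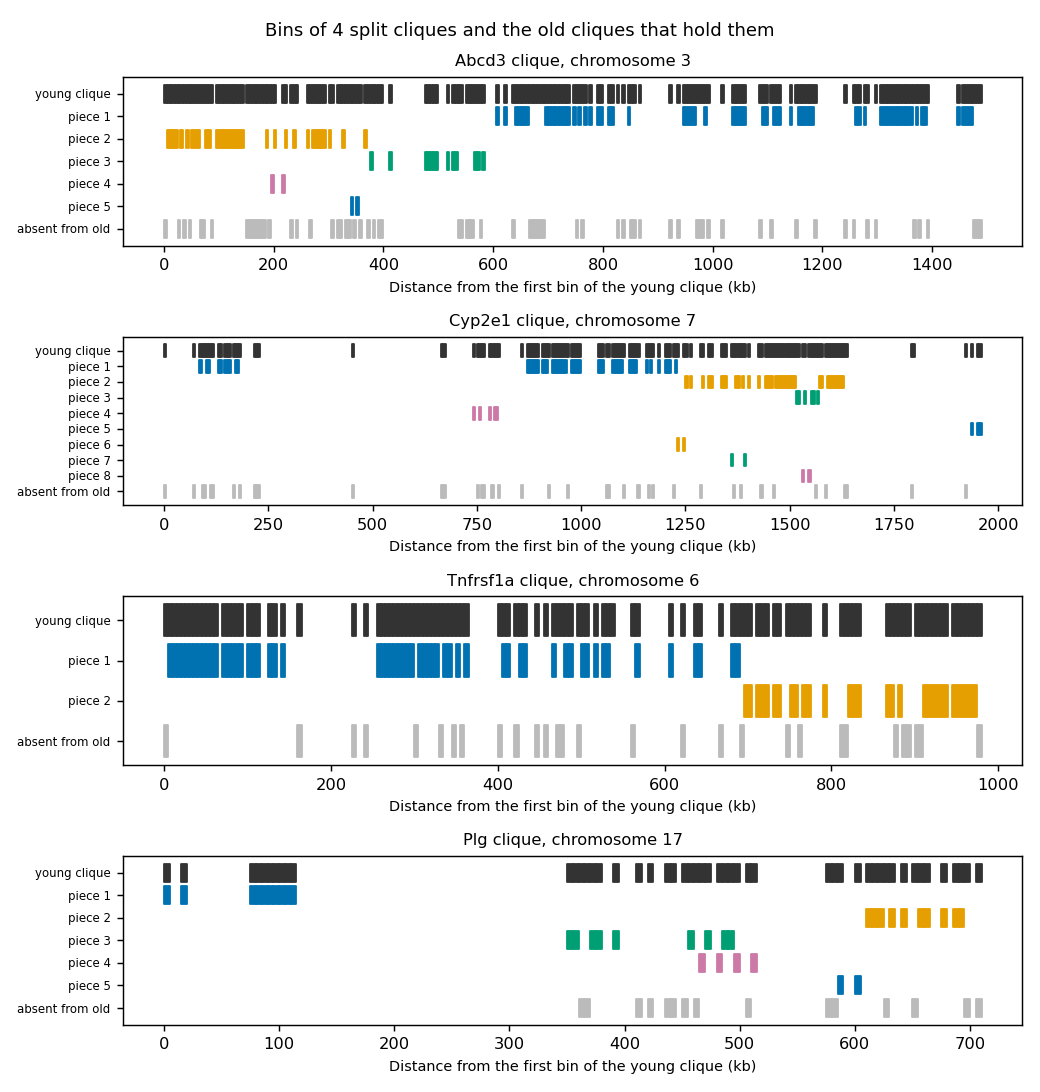
For 4 split cliques, marks show the 5 kb bins along the x axis, in kb from the first bin of the young clique, in the row of the young clique, of each old piece and of bins absent from the old network. The Tnfrsf1a clique shows 2 pieces that meet once, and the Cyp2e1 clique shows 8 pieces, several of them inside the stretch of a larger piece.

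The 3 cliques with the most pieces had fewer nodes than those above. The clique of 63 nodes at chr7:126395001-127245000 was in 10 pieces, the largest of 9 bins with Sult1a1, a phenol sulfotransferase, and 8 of them of 2 bins, and 34 bins were absent. A clique of 95 nodes at chr7:79730001-80690000 was in 9 pieces. Its largest, of 24 bins, was listed with Furin, a proprotein protease, and Fes, its second, of 12 bins, with Ap3s2 and Arpin, and the next, of 11 bins, with Idh2, the mitochondrial NADP-dependent isocitrate dehydrogenase. The clique of 80 nodes at chr4:134185001-135415000 was also in 9 pieces, of which the first held 26 bins with Clic4 and Srrm1 and the second 11 bins with Maco1 and Tmem50a.

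Among the 75 cliques with a second piece of 10 or more bins, the 5 most even divisions had a second piece as large or nearly as large as the first. At chr17:12300001-13010000 the 50 nodes of the plasminogen clique were found in pieces of 10, 10, 9, 4 and 2 bins. Plg and Map3k4 were listed by the first. The second listed Acat2, Acat3, Tcp1 and Wtap, and the piece of 4 bins listed Igf2r, an imprinted receptor. At chr11:3920001-4455000 pieces of 10 and 10 bins crossed, the first with Sec14l2 and Sec14l4 and the second with Lif, a cytokine of the interleukin-6 family. At chr11:79580001-80475000 pieces of 24 and 23 bins listed Crlf3, Atad5 and Rhot1, and Utp6. At chr10:39695001-40615000 pieces of 23 and 22 bins were found, the second with Gtf3c6 and Amd1, and the amino acid transporter gene Slc16a10 was listed by a piece of 2 bins. The clique at chr7:48745001-49540000 held pieces of 21 and 20 bins, the second with Zdhhc13, Csrp3 and E2f8.

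Near the threshold the pieces were strongly uneven in all the cliques named here but the Tnfrsf1a clique, which had 59 and 30 bins. Just inside it were the Cfb clique at chr17:34610001-35260000 with an index of 0.494 and pieces of 38, 8, 2 and 2 bins, the Agxt2 clique at chr15:10345001-11400000 with 0.492 and pieces of 31 and 2 bins, and the Tnfrsf1a clique above. Just outside, at 0.5, were the Abat clique on chromosome 16 with pieces of 26 and 2 bins, the Etv6 clique on chromosome 6 with 28, 3 and 2 bins, and the Bhmt clique on chromosome 13 with 19 and 2 bins. Over shared bins the index of the Agxt2 clique was 0.939 and that of the Abat clique 0.929.

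The old cliques that held pieces came mostly from the divided clique itself. There were 1460 of them, with a median of 4 nodes, of which 452 (31.0%) had only 2 nodes and 407 (27.9%) had at least 10. Among all 5973 old cliques, sex chromosomes included, 1127 on autosomes had at least 10 nodes, which is a smaller share. The rule itself favours larger old cliques, since these can more easily share 2 bins with a large young clique. The part of this in the difference was not tested. Counted once for each split clique, the nodes of the old cliques that held pieces made 13275 bins. Of these, 77.0% were bins of the split clique, 13.3% were found in the old network only and 9.76% came from other young cliques. For 363 of the 539 split cliques no piece's old clique held a bin of another young clique. Exchange with other cliques was most visible in 9 old cliques that held pieces of 2 split cliques each, involving 17 split cliques. The largest had 116 nodes at chr17:55955001-57340000 and joined 50 bins of a young clique of 67 nodes with 16 bins of a young clique of 29 nodes. It listed Plin5, a perilipin of lipid droplets, Lonp1, a mitochondrial protease, and C3, the central complement component. An old clique of 52 nodes at chr2:34745001-35340000 joined 23 and 14 bins from split cliques of 34 and 23 nodes and listed Hspa5, a chaperone of the endoplasmic reticulum, and the complement gene Hc. The old clique of 33 nodes that listed Cs also held 9 bins of another split clique, of 24 nodes, and listed Erbb3.

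Split cliques were spread more thinly along the chromosome than kept cliques. Their median density was 83.3 bins per Mb of span, against 119 in kept cliques and 72.3 in cliques with 1 remnant. In the class of 10 to 19 nodes the medians were 70.6 for split and 120.0 for kept cliques, and at 50 or more nodes they were 99.4 and 117.2. The quartiles over all sizes were 63.0 and 109 for split cliques and 93.2 and 149 for kept cliques, so the groups overlapped. The median span was 345 kb for split and 245 kb for kept cliques. A bin of another young clique lay inside the span in 280 split cliques (52.0%, 47.7 to 56.1), 189 kept cliques (30.4%, 26.9 to 34.1) and 165 cliques with 1 remnant (44.1%, 39.2 to 49.2). Whether the other clique lay wholly inside was not examined. The median number of protein-coding genes listed was 3 for both split and kept cliques over all sizes. For split and kept cliques it was 2 and 2 at 10 to 19 nodes, 4 and 3 at 20 to 49 nodes and 10 and 7 at 50 or more nodes. By chromosome the split share ran from 13 of 52 (25.0%, 15.2 to 38.2) on chromosome 19 to 31 of 66 (47.0%, 35.4 to 58.8) on chromosome 17, and those intervals overlapped.

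The split cliques listed 2917 protein-coding genes, 33.5% of the 8695 listed by any young clique. In the old network 1315 of them (45.1%) were listed by the clique of the largest piece, 855 (29.3%) by that of another piece and 84 (2.88%) by an old clique that held no piece. No old clique listed the other 663 (22.7%, 21.2 to 24.3), against 21.1% over large young cliques and 28% over all young cliques. The share was 15.4% for kept cliques and 31.4% for cliques with 1 remnant. Of the 663 genes, 344 (51.9%) still had an old node inside the gene body. The same share was 50.5% over large young cliques, 51.2% for kept cliques and 48.5% for cliques with 1 remnant, so it was not particular to split cliques. Genes listed at both ages, 2254 in all, sat in young cliques with a median of 47 nodes and in old cliques with a median of 15. For 1694 of these (75.2%) the old clique had no more than 50% of the nodes of the young, against 38.4% of all protein-coding genes listed at both ages, and the rule itself lowers that size. For 134 the old clique was larger. Of the 398 split cliques with at least 2 protein-coding genes, 276 (69.3%, 64.6 to 73.7) had genes listed by 2 or more pieces, 111 by 1 piece and 11 by none. The largest piece listed a gene of its young clique in 461 of 539 cases (85.5%) and the second piece in 337 (62.5%).

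Bins that hold a RefSeq start site of a protein-coding gene were found again more often than other bins. In split cliques 1733 of 2305 such bins (75.2%, 73.4 to 76.9) were nodes of the old network, against 8782 of 15778 other bins (55.7%, 54.9 to 56.4). The same difference was present in kept cliques, at 83.8% and 71.0%, and in cliques with 1 remnant, at 64.9% and 41.1%. In split cliques 45.1% of start-site bins and 35.4% of other bins lay in the largest piece, with absent bins counted in both denominators. Of the bins present in the old network, 1039 of 1733 start-site bins and 5581 of 8782 other bins lay there. That share was smaller for start-site bins.

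Lists of genes with known roles in hepatocytes were followed through the division. The 15 lists had 106 distinct genes in split cliques, of which 56 (52.8%) were listed by the largest piece, 32 (30.2%) by another piece, 6 (5.66%) by an old clique that held no piece and 12 (11.3%) by no old clique. Over all protein-coding genes of split cliques these shares were 45.1%, 29.3%, 2.88% and 22.7%. Of the 12 list genes listed by no old clique, 10 (83.3%, 55.2 to 95.3) still had an old node in the gene body. That share was 51.9% over all genes of split cliques listed by no old clique. Being listed by no old clique therefore does not mean that the gene had no old node. Of the 94 listed at both ages, 78 (83.0%, 74.1 to 89.2) had an old clique of no more than 50% of the young nodes, beside 75.2% over all genes of split cliques, and 7 had a larger one. For each list the share of its young-listed genes that lay in split cliques stands against 33.5% over all protein-coding genes, and the lists are small. In the list medians of clique size given here, a gene listed by no old clique counts as 0 nodes, also where an old node lay in its body. Over all protein-coding genes of split cliques these medians were 45 nodes in the young network and 9 in the old.

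Of 22 hepatocyte transcription factors listed by young cliques, 7 (31.8%) lay in split cliques, with medians of 40 and 21 nodes. The gene of the master regulator Hnf4a was in a young clique of 65 nodes in 5 pieces and was listed by no old clique, although an old node lay in its body. Nr1h3, the liver X receptor, was in 77 nodes and then 35, and Nr1i2, the pregnane X receptor, in 57 and then 21. Foxa3 went the other way, from a young clique of 12 nodes to an old clique of 121.

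Secreted plasma proteins had 12 of 31 listed genes in split cliques (38.7%), 10 of them in the largest piece. The complement gene Cfb was in 69 and then 46 nodes, the antithrombin gene Serpinc1 in 37 and then 22, and the inter-alpha-trypsin inhibitor genes Itih1, Itih3 and Itih4 stayed together, in 41 and then 17 nodes. The prothrombin gene F2 shared the young clique of Nr1h3 and was listed by no old clique. Of the acute phase list 6 of 21 (28.6%) lay in split cliques. Haptoglobin, Hp, shared a young clique of 41 nodes in 4 pieces with Tat, tyrosine aminotransferase, and was listed by an old clique of 9 nodes where Tat was listed by one of 12. The pentraxin genes Apcs and Crp shared a young clique of 22 nodes and were listed by separate old cliques of 2 and 3 nodes. Stat3 and Stat5a, which carry cytokine and growth hormone signals, remained together, in 60 and then 18 nodes, while their neighbour Stat5b was listed by no old clique.

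Xenobiotic metabolism had 9 of 23 listed genes in split cliques (39.1%), with medians of 63 and 10 nodes. Apart from Cyp2e1 and Gstp1 they included Ugt1a1, the bilirubin glucuronosyltransferase, in 71 and then 32 nodes, and Ces2a, a carboxylesterase, in 63 and then 4. Sult1a1 was in 63 and then 10 nodes. Of bile acid genes 7 of 18 (38.9%) lay in split cliques, with medians of 37 and 6 nodes, and 4 of them were listed by a piece that was not the largest. Cyp27a1, which starts the acidic pathway of bile acid synthesis, was in 85 nodes and then 2, and Cyp8b1, the sterol 12-alpha-hydroxylase, in 49 and then 18. The export pump gene Abcc2 was in 76 and then 32 nodes, apart from its young neighbour Got1, an aspartate aminotransferase, in 8. The uptake transporter genes Slco1a1 and Slco1b2 shared 33 young nodes and were listed by separate old cliques of 4 and 6 nodes. Members of such gene families have similar sequences, and how reads that fit several copies were treated is not stated in the labels.

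Fatty acid oxidation had 10 of 23 listed genes in split cliques (43.5%, 25.6 to 63.2), with medians of 69.5 and 33 nodes. Acadvl, the very long-chain acyl-CoA dehydrogenase, was in 61 and then 26 nodes, and Angptl4, an inhibitor of lipoprotein lipase, in 49 and then 15. Plin5 was in a larger old clique, 67 and then 116 nodes. Lipid and cholesterol synthesis had 5 of 27 (18.5%, 8.18 to 36.7), with medians of 33 and 2 nodes. Srebf2, a transcription factor of cholesterol synthesis, was in 18 nodes and then 2. Thrsp, a regulator of lipogenesis, had a young clique of 46 nodes with the lowest best index of all split cliques, 0.0652, and was listed by an old clique of 3 nodes. Acaca, acetyl-CoA carboxylase, was in 30 nodes and listed by no old clique. Glucose metabolism had 8 of 25 (32.0%). Pklr, the liver pyruvate kinase, was in 42 and then 15 nodes, and Foxo1, the transcription factor restrained by insulin, in 30 and then 9. Ppp1r3c, a glycogen-targeting phosphatase subunit, was in 41 and then 76 nodes. Amino acid metabolism had 10 of 28 (35.7%), all listed by a piece. Mat1a, the liver methionine adenosyltransferase, was in 48 and then 21 nodes, Hpd, of tyrosine breakdown, in 44 and then 20, and Gnmt, glycine N-methyltransferase, in 36 and then 35.

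Clock genes had 8 of 17 listed members in split cliques (47.1%), with medians of 47 and 19.5 nodes. Bhlhe40, a repressor in the clock, was in 105 and then 58 nodes, Per1 in 49 and then 23 and Per2 in 45 and then 16. Arntl, the core activator BMAL1, was in 15 and then 2, Npas2 and Hlf were listed by no old clique, and Dbp was in 72 and then 74. The clique of Dbp also listed Irf3, Bax and Fgf21. The first 3 were listed together by the old clique of 74 nodes, and Fgf21, the fasting hormone, was listed by an old clique of 2. The growth hormone list had 6 of 13 (46.2%). Igfals, which stabilises circulating IGF-1, was in 109 and then 51 nodes, and the male-biased Cyp2d9 in 63 nodes and no old clique, while Cyp2d22 of the same young clique was in an old clique of 28.

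The interferon list had the highest share of the 15, with 10 of 16 genes in split cliques (62.5%, 38.6 to 81.5), and medians of 65.5 and 12 nodes. This share comes from 16 genes, several of which shared a clique. Irf1 was in 59 and then 28 nodes, and Usp18, a brake on interferon signalling, in 103 nodes and no old clique. H2-K1, Psmb9 and Tap1, of antigen presentation, lay in a young clique of 49 nodes at the major histocompatibility complex. H2-K1 was listed by an old clique of 13 nodes, and Psmb9 and Tap1 by an old clique of 2 that held no piece. Bst2, which tethers virions, was in 40 and then 2. The p53 list had 4 of 13 (30.8%), with Sesn2, a sestrin of the stress response, in 49 and then 16 nodes. The AP-1 list had 5 of 20 (25.0%), with Atf4 of the integrated stress response in 22 and then 6 and Mafk in 23 and then 24. The NF-kappaB list had 2 of 13 (15.4%), Tnfrsf1a in 119 and then 35 nodes and Tlr2, a pattern receptor, in 35 and then 6.

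There were 15 split cliques with 2 or more genes of the lists. In 9 of them (60%, 35.8 to 80.2) the list genes were listed by 2 or more old cliques, beside 69.3% of split cliques whose protein-coding genes were listed by 2 or more pieces. These are unlike measures: the first takes list genes and old cliques of any kind, the second all protein-coding genes and pieces only. In 4 of the 15 the list genes were listed by 1 old clique with another list gene listed by none, and in 2 all by 1 old clique. Those 2 were the Itih clique and the clique of Gls2 and Stat2.

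The promoters of genes in split cliques were compared with the whole table. A promoter of 300 bases, from 250 before to 50 after the start site, was matched by symbol for 2361 of the 2917 genes and was available for 17491 protein-coding genes in all. The median G and C share was 60% for genes of split cliques and 56.3% over all genes. GGGCGG occurred on either strand in 61.9% and 46.3%, TATAAA in 7.79% and 13.3%, CCAAT in 38.5% and 39.0% and CACGTG in 9.95% and 7.90%. TGACTCA occurred in 3.98% and 4.58%, and CAAAGTCCA in 0.508% and 0.417%. GGGCGG consists of G and C, whose share was also higher, and the part of that share was not tested. The table includes genes with no node in either network. Promoters of genes in other young cliques were not examined apart, so whether these differences are particular to split cliques was not tested. By the fate of the gene, GGGCGG occurred in 62.6% of promoters of genes listed by the largest piece, 63.0% of those listed by another piece and 56.9% of those listed by no old clique. CACGTG occurred in 11.4%, 8.13% and 9.90%, and TATAAA in 8.74%, 7.28% and 6.67%. Promoters of genes in the largest piece and in other pieces thus had similar shares of the GC box, and no test of these differences was made.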

How the data were processed

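H3K27ac Hi-ChIP libraries of both ages were processed by the authors into 1 network per age, deposited as 4 tables: the nodes with their positions, and the cliques with their number of nodes, gene names and node names. Per the submitters' processing notes, the tools were Bowtie2 and HiC-Pro and the builds mm10 and GRCm38. Not given in the sources used here are the loop caller, the clique method, the promoter window, any versions and the way libraries were combined. The link between libraries and networks was taken from the age in the deposited names.

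Bins of the ages were matched by identical position. Each large young clique was classed by its best Jaccard index (threshold 0.5) and by the number of old cliques sharing at least 2 bins, with Python 3.11.15, pandas 2.3.3 and numpy 2.4.6. On simulated networks, where each old clique was an exact subset of the bins of a young clique, the code returned the classes built in. This checked the code and not how reliable the classes are in these networks. Gene names were taken from the deposited gene column; of 16197 names in either network, 9602 matched a protein-coding gene of RefSeq on GRCm38.p6. Start sites, strands and promoters came from RefSeq. No test was run, as each age is 1 network. Intervals are Wilson 95% intervals.

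The members and lists were chosen with earlier results of these data known. Cliques described one by one were the 10 with most nodes, the 5 with most pieces, the 5 most even and the 3 on either side of the threshold, with up to 4 genes each and up to 4 members of each list. Further genes were chosen after their listings were seen, to show what a piece held, and not every gene selected by that rule is reported here. Alternatives changed the minimum size, the threshold, the bins a piece needs, the matching of bins and the source of gene listings. A search for the CTCF motif between pieces was planned and not run, since no genome sequence was used here.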

Additional observations from a re-analysis of the deposited data

How the results depend on the processing

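The 8 results were recomputed under 33 alternatives, of which 18 stayed within 1.5 times the count or within the interval of the value and 15 moved. The count of split cliques, 539, was 357 with at least 20 nodes, 277 when a piece needed 3 bins and 139 when it needed 5. It was 226 when bins could match with 1 bin of slack, 134 over bins present at both ages and 104 when the largest piece had to hold under 50% of the bins that remained. It lay between 393 and 659 for a minimum of 5 nodes, a threshold of 0.4 or 0.6, pieces of 1 bin and the X chromosome included. When a piece needed 3 bins, the median share of bins present in the old network was 61.2% in place of 55.9%. Pieces without interleaving made up 50.2% in place of 28.4%, a border lay at the widest step in 45.1% in place of 54.5%, and 21.2% of genes in place of 22.7% were listed by no old clique. With a threshold of 0.4 the median share present was 51.9% and that in the largest piece 28.7% in place of 34.8%. With at least 20 nodes the latter was 37.5% and the median number of pieces 3 in place of 2. Genes of split cliques with no old node in the gene body, whether or not an old clique listed them, made up 11.9%. Each alternative changes which cliques or bins count, and other causes of the moves were not tested. The ratio of young to old split shares stayed between 3.33 and 4.33. No paired analysis was possible because each age is 1 pooled network without replicate numbers. The unknown depth limits all counts of absent bins.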
